A study of Mus musculus with 13 samples.

Results

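Kap encodes kidney androgen-regulated protein, a product of the proximal tubule of the mouse kidney. The 13 whole aortas of the series were ranked by their Kap level, and the 4 aortas highest in Kap were compared with the other 9. Levels are CPM, the counts of a gene scaled to a common library size, with TMM factors that also correct for composition. The 4 were selected on this value and on no label: they are Ad-sham3, Ad-sham5, Ad-sham6 and Ad-FAM3A3, so 3 of 6 Ad-sham aortas and 1 of 7 Ad-FAM3A aortas. Since Kap chose them, every difference between the 4 and the 9 is a description and carries no test.

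Each library was 1 aorta of an ApoE-/- mouse that carried, from 10 weeks of age, a pump delivering 1000 ng/kg/min of AngII over a period of at most 28 days. This infusion gives abdominal aneurysms in that strain, and every group carried both the Apoe deletion and the AngII. Ad-FAM3A mice received 5 tail vein injections of adenovirus with mouse Fam3a, FLAG-tagged and driven by EF1A, and Ad-sham mice received the same vector without Fam3a. The study compared these labels to ask what Fam3a overexpression changes in the aneurysmal aorta. The Kap level was not part of its design. The injections were systemic, so Fam3a was not directed to 1 cell type.

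Total counts ran from 14481179 to 19797407 per aorta, and 3 counts, up to which a gene without reads may have been present, corresponded to 0.140 to 0.221 CPM. Fam3a ranged from 17.9 to 30.3 CPM in all 13 aortas and overlapped between the labels, so it does not check them. Apoe was read at 3.57 to 20.5 CPM. Ddx3y, a Y-linked gene, was at 79.6 CPM or more in every aorta and Xist at 0.364 CPM or less, so all 13 libraries came from males, the sex in which Kap is strongly expressed. The smooth muscle genes Myh11 and Acta2 were at 493.7 CPM and 1368 CPM or more in every aorta. Nothing in the labels says that the libraries were prepared in batches.

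The nephron filters blood at the glomerulus, whose podocytes form the filter. The proximal tubule then takes back glucose, phosphate, amino acids and filtered protein, and its late part secretes organic anions and drugs. The thick ascending limb and the distal convoluted tubule take up salt, and the principal and intercalated cells of the collecting duct adjust water, sodium and acid. Each segment uses its own transporters, so transcripts of these genes tell segments apart. An aorta has no nephron, but the renal arteries leave the abdominal aorta beside the kidneys, the adrenal glands and the sympathetic ganglia.

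Kap was at 489 CPM in Ad-sham6, 166 CPM in Ad-FAM3A3, 133 CPM in Ad-sham3 and 73.5 CPM in Ad-sham5. Ad-sham5, just inside the choice, held 1573 Kap counts, and Ad-FAM3A2, just outside it, held 451 counts or 27.7 CPM. Ad-sham4 followed with 84 counts or 5.39 CPM and Ad-sham1 with 11 counts. The step from the 4 to the 9 was therefore not one from present to absent: 2 of the 9 were intermediate. The other 7 had less than 1 CPM, with 1 count in Ad-FAM3A6 and 0 counts in Ad-sham2, Ad-FAM3A1, Ad-FAM3A4, Ad-FAM3A5 and Ad-FAM3A7. In whole aortas, fewer kidney cells and less RNA per kidney cell cannot be told apart.

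**Figure D1:**
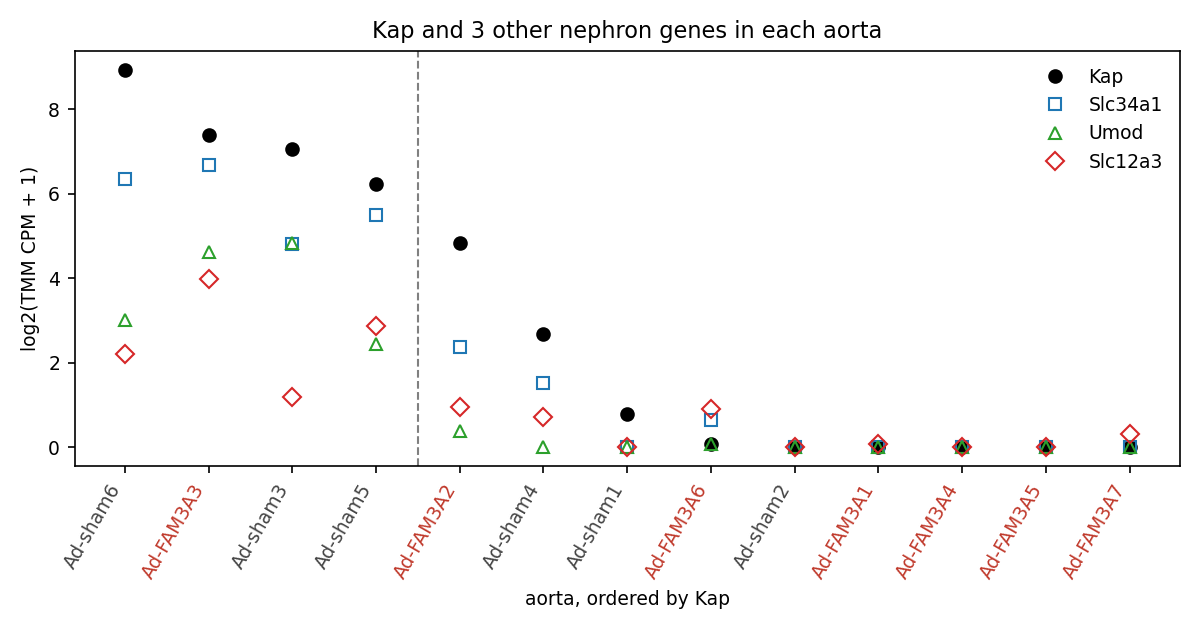
Level of Kap, Slc34a1, Umod and Slc12a3 in each of the 13 aortas, as log2(TMM CPM + 1), with aortas ordered by Kap and the dashed line between the 4 chosen aortas and the other 9. Dark axis labels are Ad-sham aortas and red ones Ad-FAM3A aortas, and each point is 1 library. All 4 genes are higher in the 4 aortas than in the 9, and Ad-FAM3A2 and Ad-sham4 lie between the 4 and the rest for Kap and Slc34a1.

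A set of 132 genes of the nephron, in 14 lists by segment or role, was followed across the 13 aortas. Kap is among the 132, in a list of its own, and the choice itself puts its level in all 4 above all 9. Every one of the 132 had a count in at least 1 aorta. For 51 of the 132, or 38.6%, all 4 aortas were above all 9, while this held for 590 of all 30782 genes with a count, or 1.92%. In 0 of the 132 were all 4 below all 9, but this held for only 37 of the 30782 genes with a count, so nothing is read from the 0. With the virus label as covariate, edgeR's quasi-likelihood fit across 15811 genes called 109 genes higher in the 4, or 0.689%, at an adjusted p below 0.05 and a log2 fold change above 1, and 0 lower, where 213 were lower at an unadjusted p below 0.05, and DESeq2 called 14 lower and limma-voom 3. Of the 132 nephron genes, 71 passed the filter on low counts and 19 were called higher. The filter was blind to the split and removed nephron genes with reads in few aortas, Umod and Slc5a2 among them. Without it 235 of 30782 genes were called higher, or 0.763%, of which 49 were nephron genes. Because Kap chose the aortas, nothing is read from these counts, and they rest on single libraries: edgeR made 0 calls without Ad-FAM3A3, 12 without Ad-sham5 and 554 without Ad-sham1.

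The genes of the tubule epithelium as a whole followed Kap. In their list of 10, all 4 aortas were above all 9 for 7 genes, and 3 of 3 that passed the filter were called higher. Cdh16, the kidney-specific cadherin that joins tubule cells, was at 13.5 CPM in Ad-sham6, 21.4 CPM in Ad-FAM3A3, 5.43 CPM in Ad-sham3 and 5.42 CPM in Ad-sham5. In the 9 aortas Cdh16 had a low of 0.058, a median of 0.513 and a high of 0.738 CPM, which gave a fitted log2 fold change of 4.80 (SE 0.55, 4 against 9). The groups did not overlap, and the lowest of the 4 stood far above the highest of the 9. Kl, the klotho co-receptor for FGF23, was at 16.6, 20.1, 4.92 and 6.64 CPM in the same order of aortas and at 0 to 0.738 CPM in the 9, with a log2 fold change of 5.65 (SE 0.71). Fxyd2, the gamma subunit of the sodium pump, was at 24.2, 43.2, 22.2 and 25.7 CPM against 1.32 to 7.25 CPM. Fxyd2 thus had reads in all 13 aortas, whereas Kl had none in the lowest. Pax8, a transcription factor of the tubule, stayed low in the 4, at 0.316 to 1.35 CPM, with at most 0.0642 CPM in the 9.

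In the early proximal tubule, which does most of the uptake of glucose and phosphate, all 4 aortas were above all 9 for 8 of 13 genes and 3 of 7 tested were called higher. Slc34a1, the main sodium-phosphate cotransporter of the brush border, was at 80.8 CPM in Ad-sham6, 102 CPM in Ad-FAM3A3, 26.8 CPM in Ad-sham3 and 44.1 CPM in Ad-sham5. In the 9 it had a low of 0, a median of 0 and a high of 4.18 CPM, and the fitted log2 fold change was 6.63 (SE 1.12). Ad-FAM3A3 was the highest here although Ad-sham6 was the highest in Kap. Lrp2, or megalin, the receptor that takes up filtered protein, was at 67.0, 50.9, 20.2 and 23.0 CPM against 0.121 to 3.24 CPM in the 9, with a log2 fold change of 5.16 (SE 0.71). Its partner Cubn was at 11.8, 10.4, 3.09 and 6.31 CPM against 0.545 to 2.32 CPM, with a log2 fold change of 2.62 (SE 0.40). Slc5a2, the glucose transporter SGLT2, was at 0.964 CPM in Ad-sham6, 11.4 CPM in Ad-FAM3A3, 1.45 CPM in Ad-sham3 and 1.54 CPM in Ad-sham5, and 0.246 CPM was the highest level in the 9. Slc4a4, Slc7a7 and Slc7a8 of the same list, which other tissues also express, overlapped between the 4 and the 9: Slc7a8 was at 14.9 to 37.7 CPM in the 4 and at 7.39 to 20.8 CPM in the 9.

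The middle and late proximal tubule secretes organic anions. All 4 aortas were above all 9 for 8 of the 15 genes of its list, and 1 of 7 tested, the dicarboxylate transporter Slc13a3, was called higher. Slc22a6, the organic anion transporter OAT1, was at 20.5 CPM in Ad-sham6, 15.9 CPM in Ad-FAM3A3, 6.94 CPM in Ad-sham3 and 6.73 CPM in Ad-sham5. In the 9 its low and median were 0 and its high, in Ad-FAM3A2, was 0.922 CPM. Slc22a12, the urate transporter URAT1, was at 15.2, 10.9, 8.39 and 7.53 CPM against 0 to 1.60 CPM. Slc7a13, an amino acid transporter of the last part of the proximal tubule, was at 24.6 CPM in Ad-sham6 and at only 4.44 CPM in Ad-FAM3A3, 5.74 CPM in Ad-sham3 and 4.91 CPM in Ad-sham5. Ad-sham6, the aorta highest in Kap, was thus also the highest in this late gene. Slc22a13 had reads in Ad-sham6, at 1.09 CPM, and in Ad-sham3, at 0.0631 CPM, and in no other aorta.

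Metabolic enzymes were among the more abundant transcripts that followed Kap. All 4 aortas were above all 9 for 12 of the 21 genes of their list, and 8 of 13 tested were called higher. Acsm2, a medium-chain acyl-CoA synthetase of the kidney, was at 69.0 CPM in Ad-sham6, 73.0 CPM in Ad-FAM3A3, 23.2 CPM in Ad-sham3 and 27.1 CPM in Ad-sham5. The 9 ran from a low and a median of 0 to 4.98 CPM in Ad-FAM3A2, with a log2 fold change of 6.15 (SE 1.17). Keg1, a glycine acyltransferase-like kidney gene, was in the same order of aortas at 46.1, 58.8, 12.6 and 18.8 CPM against 0 to 3.44 CPM, with a log2 fold change of 5.94 (SE 1.03). Miox, the first enzyme of inositol breakdown, was at 28, 32.6, 6.88 and 12.3 CPM against 0 to 2.09 CPM. G6pc, the glucose-6-phosphatase of gluconeogenesis, was uneven, at 15, 51.2, 2.59 and 5.52 CPM, and its lowest value fell below the 3.01 CPM of Ad-FAM3A2. Pck1, another enzyme of gluconeogenesis that fat also makes, did not separate the groups, at 472 to 2640 CPM in the 4 and 555.6 to 2024 CPM in the 9.

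Among 9 brush border enzymes 3, Mep1a, Ggt1 and the DNase I gene Dnase1, had all 4 aortas above all 9. Mep1a, the meprin protease subunit, was at 26.7 CPM in Ad-sham6, 11.8 CPM in Ad-FAM3A3, 7.95 CPM in Ad-sham3 and 8.18 CPM in Ad-sham5, with 0 to 1.54 CPM in the 9. Ggt1, which breaks down glutathione, was at 22.3, 12, 6.37 and 5.94 CPM against 0 to 2.20 CPM. The peptidases Mme, Anpep, Enpep and Dpep1 of the same list overlapped, for example Mme at 56.5 to 119 CPM in the 4 and 61.3 to 229.3 CPM in the 9. Brush border genes with high levels in every aorta therefore did not follow Kap. In the list of 9 genes higher in male kidney, 2 had all 4 aortas above all 9. Cyp2j13 was at 1.64 to 7.33 CPM against at most 0.553 CPM. Slc7a13, which is also in the middle and late proximal list, was at 4.44 to 24.6 CPM against at most 0.676 CPM. Cyp4b1, Cyp2e1, Odc1 and Gusb overlapped. The 3 genes higher in female kidney differed from each other. The amino acid transporter Slc7a12 had 0.0643 CPM in Ad-sham6, 0.0706 CPM in Ad-FAM3A3 and 0 in all others. Cyp4a14, a fatty acid hydroxylase with close paralogs, was at 6.43 CPM in Ad-sham6, 7.20 CPM in Ad-FAM3A3, 0.126 CPM in Ad-sham3 and 0.795 CPM in Ad-sham5, and at most 0.184 CPM in the 9. The prolactin receptor Prlr was at 2.12 to 5.43 CPM in the 4 and 0.553 to 10.1 CPM in the 9.

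**Figure D2:**
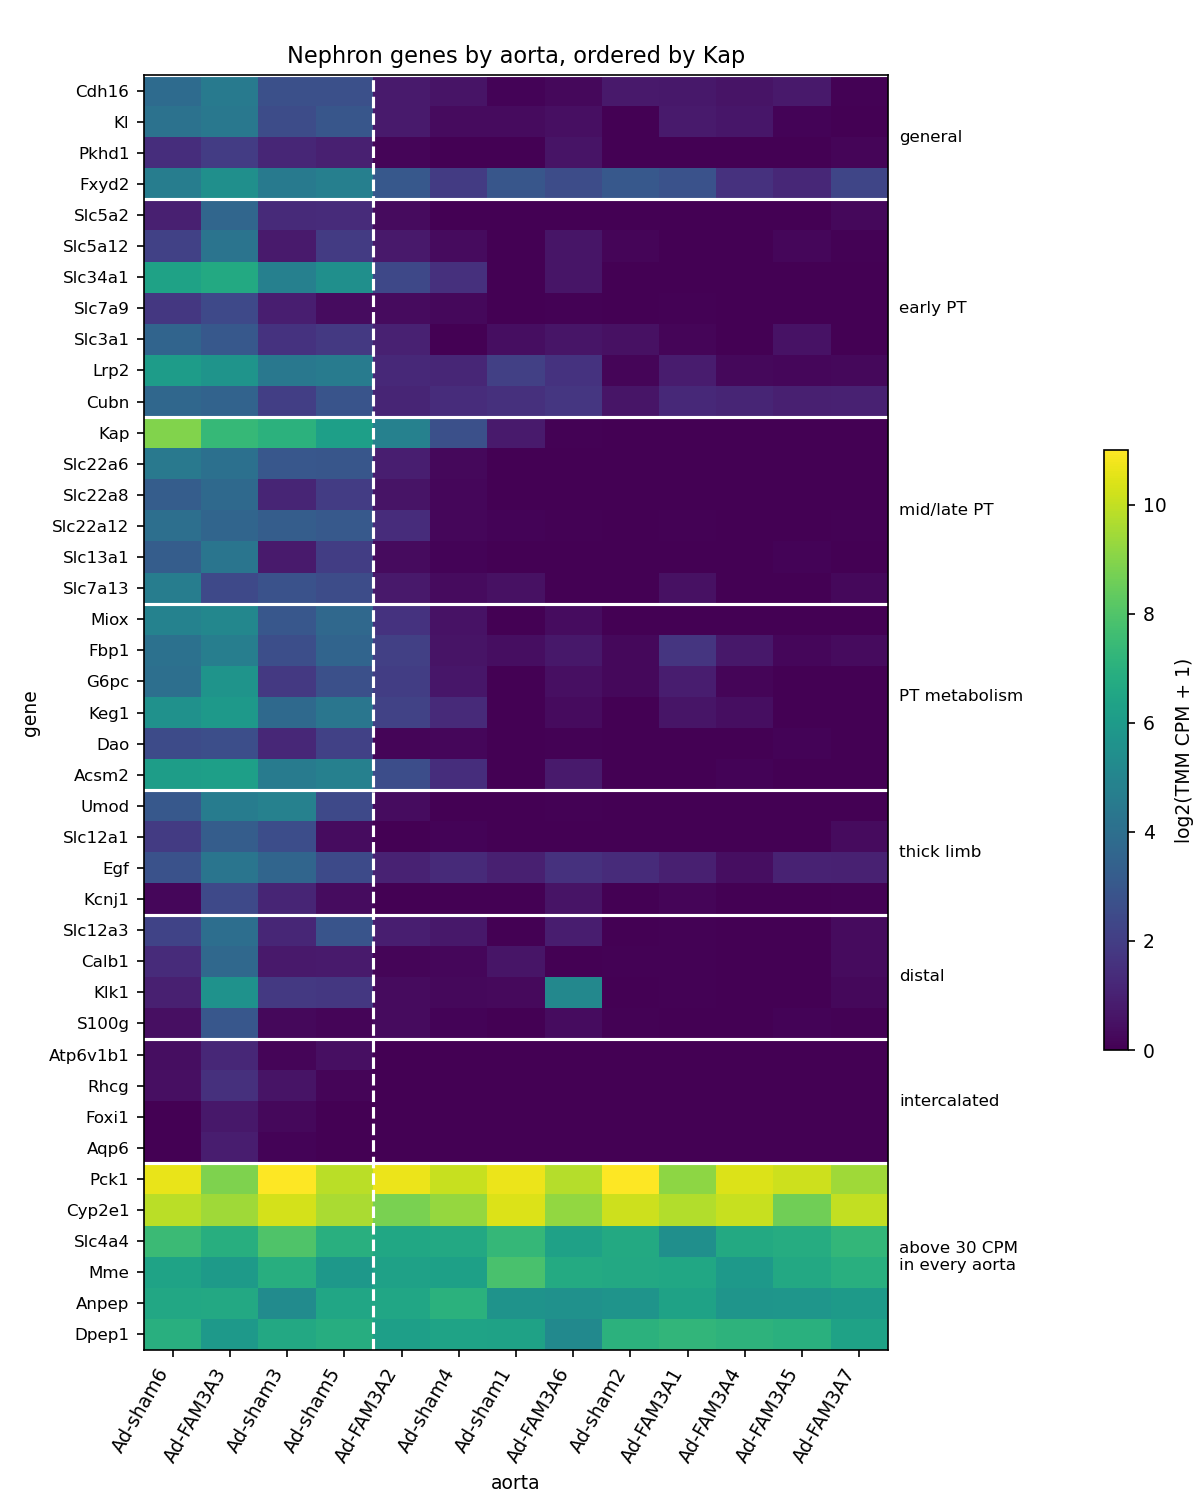
Levels of nephron genes (rows, grouped by segment) in the 13 aortas (columns, ordered by Kap), coloured by log2(TMM CPM + 1), with the dashed line between the 4 chosen aortas and the 9. PT is the proximal tubule. Kap, which has a list of its own, is drawn with the middle and late proximal tubule genes. Most proximal tubule genes are bright in the 4 aortas, dim in Ad-FAM3A2 and dark elsewhere, the 4 intercalated genes shown are brightest in Ad-FAM3A3, and the 6 genes in the last block, above 30 CPM in every aorta, do not follow Kap.

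The nephron genes were also grouped by their highest level in the 7 aortas with Kap under 1 CPM. Of the 132 nephron genes, 67 were at 1 CPM or less in each of the 7, and 36 of the 67 had all 4 aortas above all 9. Kap is among the 36 through the choice itself. Of 35 genes that reached 1 to 10 CPM in the 7, 13 did so, and of 30 genes above 10 CPM, 2 did so. The 67 genes were chosen for being low in the 7, so their low level there is no result. More than 3 counts were read for 49 of the 67 in Ad-sham6, 60 in Ad-FAM3A3, 50 in Ad-sham3 and 50 in Ad-sham5. In Ad-FAM3A2 35 of the 67 and in Ad-sham4 22 of the 67 passed 3 counts, and in the 7 it was 7 to 21. Without Kap, the 67 genes summed to 498.8 CPM in Ad-sham6, 663 CPM in Ad-FAM3A3, 182.8 CPM in Ad-sham3 and 212.7 CPM in Ad-sham5. They summed to 38.0 CPM in Ad-FAM3A2 and 15.8 CPM in Ad-sham4, the same order as Kap in these 2 aortas, whose levels did not choose the 67 genes. Per kilobase of the transcript length in the count table, Kap had the highest mean level of the 67 in the 4, at 691, 235, 188 and 104 CPM per kb, and the next by its mean, Slc34a1, was at 17.3, 21.8, 5.72 and 9.44 CPM per kb.

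The thick ascending limb differed among the 4. Umod, the uromodulin that this segment secretes into the urine, was at 27.5 CPM in Ad-sham3 and 23.7 CPM in Ad-FAM3A3, but at 7.07 CPM in Ad-sham6 and 4.44 CPM in Ad-sham5. In the 9 its highest level was 0.307 CPM, in Ad-FAM3A2, and its median 0. Slc12a1, the sodium-potassium-chloride transporter that furosemide blocks, was at 5.11 CPM in Ad-sham3, 8.54 CPM in Ad-FAM3A3, 2.76 CPM in Ad-sham6 and 0.280 CPM in Ad-sham5, with 0.232 CPM as the highest of the 9. Egf, whose precursor the distal nephron makes, was at 11, 18.3, 5.91 and 4.53 CPM in the same aortas and at 0.314 to 1.96 CPM in the 9, with a log2 fold change of 3.15 (SE 0.41). The order of the 4 in these genes was not that of Kap, since Ad-sham6 was low in them. In this list of 11, all 4 aortas were above all 9 for 4 genes and 1 of 6 tested was called higher. Ptger3, Ppp1r1a and Sostdc1 overlapped, Ptger3 at 43.0 to 82.5 CPM in the 4 and 17.8 to 121.2 CPM in the 9.

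The 6 genes of the distal convoluted tubule did not move as one. Slc12a3, the thiazide-sensitive sodium chloride transporter of the distal convoluted tubule, was at 14.8 CPM in Ad-FAM3A3, 6.26 CPM in Ad-sham5, 3.60 CPM in Ad-sham6 and 1.26 CPM in Ad-sham3, against 0 to 0.922 CPM in the 9. Its fitted log2 fold change was 4.69 (SE 0.94). The calcium-binding protein Calb1 was at 12 CPM in Ad-FAM3A3 and 0.694 to 1.54 CPM in the other 3. Slc12a3 and Calb1 were the 2 of 6 distal convoluted genes with all 4 above all 9. The other 4 overlapped: Pvalb, or parvalbumin, was at 0 in Ad-FAM3A3, 11.6 CPM in Ad-sham6 and 16.05 CPM in Ad-FAM3A2, Klhl3 was at 3.28 to 8.55 CPM in the 4 and at most 7.03 CPM in the 9, the magnesium channel Trpm6 at 1.01 to 1.69 CPM and at most 2.34 CPM, and the kinase Wnk4 at 2.90 to 6.91 CPM and at most 5.52 CPM. S100g, the small calcium-binding protein of the connecting tubule, was at 6.84 CPM in Ad-FAM3A3 and 0.0935 to 0.386 CPM in the other 3, which overlapped with the 9. Klk1, the kallikrein of the connecting tubule and of glands, was at 47.4 CPM in Ad-FAM3A3, 0.964 to 2.52 CPM in the other 3, and 33.75 CPM in Ad-FAM3A6. Ad-FAM3A6 was also the aorta with pancreas genes, summed over 6 genes at 1141 CPM, and in it Slc12a3 was at 0.856 CPM and Calb1 at 0.

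Few genes of the collecting duct and glomerulus separated the 4 from the 9. Of 12 principal cell genes 0, and of 12 intercalated cell genes 3, had all 4 aortas above all 9. Aqp2, the water channel of the principal cell, was at 1.67 to 3.53 CPM in the 4 and 0.306 to 2.22 CPM in the 9. Rhcg, an ammonia channel of intercalated cells, was at 1.90 CPM in Ad-FAM3A3, 0.505 CPM in Ad-sham3, 0.386 CPM in Ad-sham6 and 0.0935 CPM in Ad-sham5 and had no read in the 9. Atp6v1b1, the proton pump subunit of intercalated cells, was at 1.34, 0.126, 0.321 and 0.374 CPM in the same order and had no read in the 9. Several of these values are below the 3-count limit of their library, and they were kept only as a description. Foxi1 and Aqp6, both of intercalated cells, were at 0.635 CPM and 0.847 CPM in Ad-FAM3A3, 0.189 CPM and 0.0631 CPM in Ad-sham3, and had no read in the other 11 aortas. Insrr, an insulin receptor relative, was the third intercalated gene, at 4.11 to 8.46 CPM against 0 to 3.61 CPM. Among the 9 it was highest, at 2.67 to 3.61 CPM, in Ad-sham1, Ad-FAM3A1, Ad-FAM3A6 and Ad-FAM3A7, the 4 of the 9 highest in the sympathetic gene Dbh, and at 0 to 0.799 CPM in the rest, both aortas of intermediate Kap included. Nphs1, or nephrin, of the podocyte's slit diaphragm, was at 0.564 CPM in Ad-FAM3A3, had no read in the other 3, and reached 1.65 CPM in Ad-FAM3A6. In none of the 8 podocyte genes were all 4 aortas above all 9, and Synpo and Podxl were at 64.1 CPM or more in all 13. Ren1, the renin of juxtaglomerular cells, was at 0.494 to 2.20 CPM in the 4 and 0.0736 to 1.79 CPM in the 9.

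To compare the 4 aortas with each other, pairs of genes were counted within a library, so that total amount and scaling cancel. Intervals are exact 95% Clopper-Pearson intervals and cover counting error only. Slc7a13 made up 87.8% (84.4 to 90.8) of the reads of Slc7a13 and Slc5a12 in Ad-sham6 and 88.3% (80.5 to 93.8) in Ad-sham3. The share was 64.0% (56.2 to 71.4) in Ad-sham5 and 20.1% (15.8 to 24.9) in Ad-FAM3A3. Slc5a12, a lactate transporter, marks the early part of the proximal tubule, so these 2 genes stood in different proportions in these aortas, beyond counting error except between Ad-sham6 and Ad-sham3. Umod made up 50.7% (47.3 to 54.1) of the reads of Umod and Slc34a1 in Ad-sham3, 18.8% (17.1 to 20.7) in Ad-FAM3A3, 9.14% (7.46 to 11.1) in Ad-sham5 and 8.04% (6.65 to 9.61) in Ad-sham6. Slc12a3 against Slc34a1 gave 12.7% (11.1 to 14.4) in Ad-FAM3A3 and 12.4% (10.5 to 14.5) in Ad-sham5, but 4.50% (2.77 to 6.87) in Ad-sham3 and 4.26% (3.24 to 5.50) in Ad-sham6. Each of these pairs put the 4 aortas into different groupings. Lrp2 against Slc34a1, both proximal, ran from 33.3% (31.3 to 35.3) in Ad-FAM3A3 to 45.3% (43.3 to 47.4) in Ad-sham6. Slc5a2 against Slc34a1, both of the early proximal list, gave 1.18% (0.661 to 1.94) in Ad-sham6, 3.38% (2.34 to 4.71) in Ad-sham5, 5.15% (3.29 to 7.62) in Ad-sham3 and 10.1% (8.64 to 11.6) in Ad-FAM3A3. Pairs within 1 segment thus also differed among the 4 beyond counting error, so the shares are proportions of genes and not of segments.

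Kap itself was 85.8% (85.1 to 86.5) of the reads of Kap and Slc34a1 in Ad-sham6 and 83.2% (81.7 to 84.6) in Ad-sham3, and 62.5% (60.6 to 64.4) in Ad-sham5 and 61.9% (60.4 to 63.5) in Ad-FAM3A3. In Ad-FAM3A2, which was not among the 4, the share was 86.9% (83.7 to 89.7) on 451 and 68 counts. Its interval overlapped those of Ad-sham6 and Ad-sham3 and not those of Ad-sham5 and Ad-FAM3A3. Umod was 6.85% (2.26 to 15.3) of the reads of Umod and Slc34a1 there, and Slc7a13 and Slc5a12 had 11 counts each.

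Summed over the segment genes that were at 1 CPM or less in the 7 aortas lowest in Kap, and taken per kilobase, middle and late proximal tubule genes made up 49.3% in Ad-sham6, 35.8% in Ad-sham5, 29.6% in Ad-sham3 and 19.7% in Ad-FAM3A3. The early proximal genes made up 42.2%, 50.5%, 26.4% and 42.1% in the same aortas. The proximal tubule together was thus the main part of the sum in each of the 4. Thick limb genes made up 37.3% in Ad-sham3, 12.9% in Ad-FAM3A3, 7.11% in Ad-sham5 and 5.24% in Ad-sham6. Umod gave 9.96 of the 11.2 CPM per kb of the thick limb genes in Ad-sham3 and 8.58 of 11.39 in Ad-FAM3A3. In Ad-sham5 it gave 1.61 of 1.74 and in Ad-sham6 2.56 of 3.08, so the thick limb share rests mainly on 1 gene. Principal cell and connecting tubule genes made up 18.5% in Ad-FAM3A3 and 1.79% to 4.31% in the other 3. In Ad-FAM3A3 the short gene S100g gave 14.3 of their 16.4 CPM per kb, Hsd11b2 gave 1.99 and Scnn1b 0.134, so that share rests on 1 gene. These genes were picked after their levels were seen, and these shares depend on which genes stand for a segment.

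**Figure D3:**
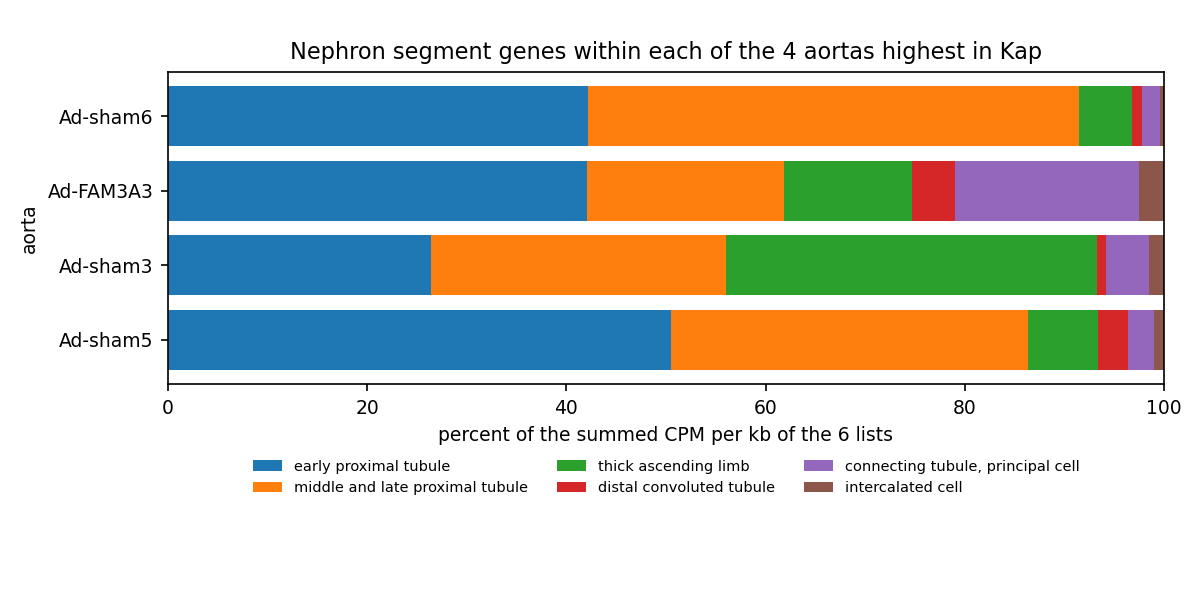
Share of each nephron segment (colours) in the summed CPM per kilobase of the segment genes, in percent, for the 4 aortas highest in Kap, 1 bar per library. Early and middle or late proximal tubule genes fill most of each bar. Thick limb genes take 37.3% in Ad-sham3, most of it from Umod. Connecting tubule and principal cell genes take 18.5% in Ad-FAM3A3, most of it from S100g.

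The 20 genes whose level was most like that of Kap over the 13 aortas, by Pearson's r of log2 CPM among genes at 1 CPM or more in at least 4 aortas, ran from r = 0.976 for Akr1c21 to r = 0.931 for Cyp2a4. Akr1c21, an aldo-keto reductase of the proximal tubule that acts on steroids, was at 6.06 to 33.0 CPM in the 4 and at most 2.34 CPM in the 9. Of the 20, 8 were in the nephron lists, namely Mep1a, Slc34a1, Acsm2, Slc22a12, Slc22a6, Miox, Cyp2j13 and Keg1. The other 12 were Akr1c21, the organic anion transporter Slco1a6, the amino acid transporter Slc6a18, Ugt2b38, Tmem174, the phosphate and urate transporter Slc17a3, the tight junction protein Cldn2, the lactate transporter Slc5a8, the oxidase Hao2, Cyp4a10, the scaffold Pdzk1 and Cyp2a4. Kap was under 1 CPM in 7 of the 13 aortas, so these correlations rest mainly on the 4 and the 2 of intermediate Kap. Some of the genes had a few reads in the 7 as well, for example Keg1 at 0.54 CPM in Ad-FAM3A1. The libraries are shared by every gene. Slco1a6, Akr1c21, Ugt2b38, Cyp2j13, Cyp4a10 and Cyp2a4 have close paralogs, and how the counting treated reads that fit several genes is not given in the sources used here, so their levels are uncertain. The count table also holds genes on the opposite strand that overlap Slc34a1, Slc22a12, Keg1, Slco1a6, Pdzk1 and Cyp2a4. The same holds for Pax8, Slc5a2, Slc7a7, Slc3a1, Cubn, Slc13a3, Slc27a2, Enpep, Dnase1, Nphs1, Umod, Slc12a1, Egf, Trpm6, Wnk4, Scnn1b, Klk1, S100g, Insrr and Hnf4a among the nephron genes named, and for Cyp11b1, Xist, Unc13a, Tfcp2l1 and Slc26a1. Reads of such pairs cannot be told apart without strand, and whether the counting used strand is likewise not given.

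Promoters were read from RefSeq as the 250 bases before the RefSeq start on build GRCm38.p6, and were searched for CAAAGTCCA on either strand, a core of the sites of HNF4, a factor of the proximal tubule. Of the 67 nephron genes low in the 7 aortas, 46 had a window, 56 windows in all. The motif was in 3 of the 56, or 5.36%, namely in Slc3a1 and in both windows of Agxt2, which share the same match, against 0.384% of 32851 windows of that length over all genes. Of Kap and the 20 genes most like it, 18 of 21 had a window, and 0 of their 21 windows held the motif. The window of Slc3a1, a subunit of the cystine transporter, is shown because it holds the motif, in capitals, and no annotated exon. For Kap, which chose the aortas, the 155 bases of its window before the longest annotated transcript are shown. Both are written 5′ to 3′ on the strand of the gene.
Slc3a1, chr17:85028097-85028346, + strand: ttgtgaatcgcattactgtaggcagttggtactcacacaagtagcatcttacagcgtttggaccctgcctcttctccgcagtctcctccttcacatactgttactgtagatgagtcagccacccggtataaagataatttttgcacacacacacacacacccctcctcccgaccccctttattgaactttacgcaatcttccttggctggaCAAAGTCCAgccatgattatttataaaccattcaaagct
Kap, chr6:133853763-133853917, - strand: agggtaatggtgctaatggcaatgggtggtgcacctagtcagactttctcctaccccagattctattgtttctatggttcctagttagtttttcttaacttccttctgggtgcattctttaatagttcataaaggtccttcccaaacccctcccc
These matches are letters in a window and no evidence of binding. Slc3a1 was at 10.5 CPM in Ad-sham6, 7.13 CPM in Ad-FAM3A3, 2.02 CPM in Ad-sham3 and 2.52 CPM in Ad-sham5 and at 0 to 0.984 CPM in the 9. Hnf4a, the gene of the HNF4 factor, was at 14.8, 16.5, 5.74 and 6.36 CPM in the same aortas and at 0 to 2.58 CPM in the 9. In both genes all 4 aortas were above all 9.

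Of the 109 genes called higher in the 4 aortas, 90 were in no nephron list. The 5 with the largest fitted fold changes were Cyp2j5, an arachidonic acid epoxygenase of the proximal tubule, at a log2 fold change of 6.69 (SE 1.18), then Slc34a1, Acsm2, Keg1 and Kl. Further kidney genes among the 90, named after their values were seen, were Akr1c21, Ugt3a2, Kcnj16, Cldn2, Abcc2, Tfcp2l1, Slc47a1 and Slc26a1, with log2 fold changes of 2.20 to 5.03. Of the rest, 3 genes with known roles in neurons are given as examples, also chosen after their values were seen. Ret, the receptor of GDNF family ligands, was at 58.2 CPM or more in the 4 and had a median of 10.2 and a high of 34.05 CPM in the 9. The synaptic vesicle protein Sv2a was at 27.6 CPM or more in the 4 and at most 17.1 CPM in the 9, and Unc13a, which primes vesicles for release, was at 11.4 CPM or more against at most 8.98 CPM.

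Markers of sympathetic neurons moved with the split. Dbh, which makes noradrenaline, was at 155 CPM in Ad-sham6, 476 CPM in Ad-FAM3A3, 347 CPM in Ad-sham3 and 421 CPM in Ad-sham5, and in the 9 it had a low of 0, a median of 9.16 and a high of 147.6 CPM. All 4 were above all 9 for 5 of the 8 sympathetic and chromaffin genes of the list, and the summed list was at 382.4 to 1043 CPM in the 4 and 4.17 to 400 CPM in the 9. Of these 8, 7 were tested and 0 were called. The 2 aortas of intermediate Kap were not intermediate in Dbh, since Ad-FAM3A2 had 9.16 CPM and Ad-sham4 had 0. Over the 9 aortas outside the 4, the 90 called genes in no nephron list had a median r of 0.50 with Dbh, and 44 of the 90 had r over 0.5, while the 19 called nephron genes had a median r of -0.16 and 0 of 19 over 0.5. The 2 sets are not alike in level, since 13 of the 19 and 13 of the 90 had a median under 1 CPM in the 9, and near 0 a gene can hardly correlate with Dbh, so nothing is read from this contrast. Among all 15811 genes tested, 9.85% had r over 0.5 with Dbh, on 9 points each. The 19 nephron genes had a median log2 fold change of 5.16 and at least 2.19, and the 90 a median of 1.64. With log2 CPM of Dbh as a further covariate, added after seeing the data, 1 gene was called higher and 1 lower, and the nephron calls went from 19 to 1. Dbh itself separated the 4 from the 9, so this fit is no test of ganglia, and their part in the 109 calls was not tested.

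**Figure D4:**
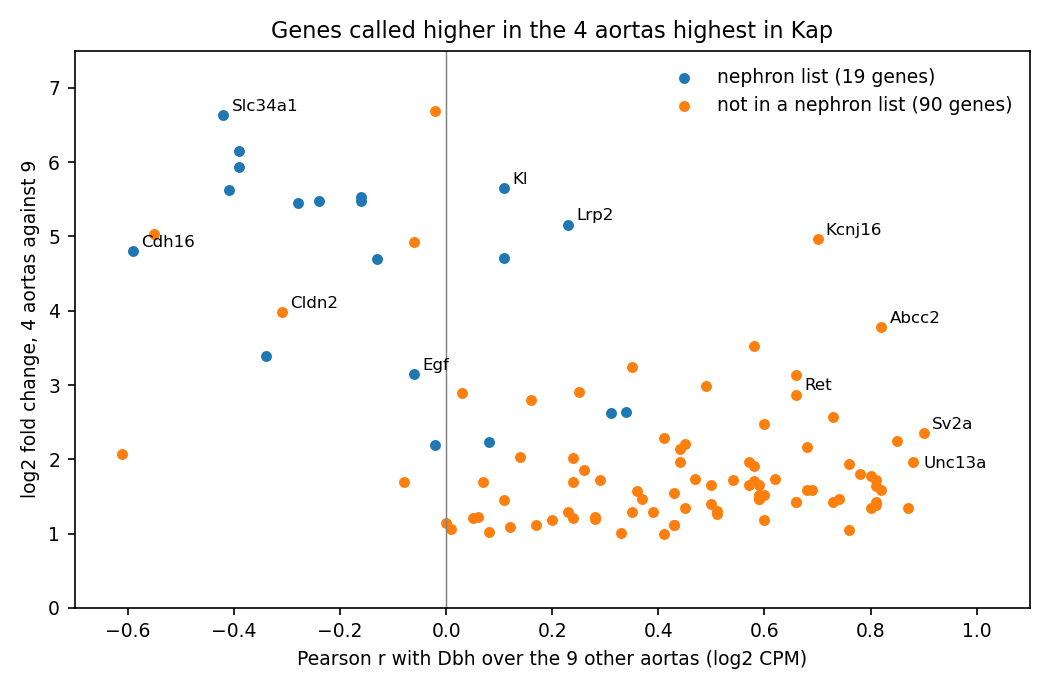
Each point is 1 of the 109 genes called higher in the 4 aortas highest in Kap, with its Pearson r with Dbh over the 9 other aortas on the horizontal axis and its fitted log2 fold change, 4 against 9, on the vertical axis. Of the 19 nephron genes (blue) all have a log2 fold change above 2 and 0 have r over 0.5, while of the 90 genes in no nephron list (orange) 25 are above 2 and 44 have r over 0.5.

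Markers of other organs near the kidney were read in the same way. The adrenal cortex list of 9 genes was at 6.45 to 7.71 CPM in the 4 and 4.98 to 8.23 CPM in the 9, most of it Star and Mc2r, and Cyp11b1 and Cyp11b2, which make the final steroids, were at 0.300 CPM or less in all 13. Chromaffin-specific Pnmt was at 0.307 CPM or less in all 13. The 8 urothelial genes of renal pelvis and ureter summed to 1.78 to 11.9 CPM in the 4 and 2.01 to 8.40 CPM in the 9, and Upk2 was at most 0.0631 CPM in the 4. Adrenal and urothelial sums thus overlapped between the 4 and the 9. The 12 liver genes, several shared with the kidney's metabolism, summed to 29.8 to 117 CPM in the 4 and 4.52 to 577 CPM in the 9, with 0 of 10 tested called. Alb was at 33.4, 10.6, 22.2 and 10.9 CPM in the 4, 66.7 CPM in Ad-FAM3A2 and 319 CPM in Ad-FAM3A1, which held no Kap read. The 4 mesothelial genes summed to 132.1 CPM in Ad-sham3 and 1.82 to 2.12 CPM in the other 3, and to 2.76 to 37.7 CPM in the 9, with 37.7 CPM in Ad-sham1, 23.6 CPM in Ad-FAM3A1 and 12.9 CPM in Ad-FAM3A6. Havcr1, or KIM-1, a marker of injured tubule, was at 0.321 CPM or less in the 4 and reached 9.97 CPM in Ad-FAM3A6.

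The aortic cell types overlapped between the 4 and the 9. The 8 smooth muscle genes summed to 5060 to 7536 CPM in the 4 and 2301 to 17560 CPM in the 9, and 0 were called. The 4 fibroblast genes summed to 2369 to 7228 CPM and 1555 to 5172 CPM, and the 4 endothelial genes to 945.5 to 2109 CPM and 813.3 to 2109 CPM. Red cell genes had a median log2 fold change of -1.83 over 4 genes, with sums of 488.7 to 1343 CPM in the 4 and 756.3 to 7591 CPM in the 9, and 0 were called. Hbb-bs, a beta globin, was at 819, 686, 689 and 271 CPM in Ad-sham6, Ad-FAM3A3, Ad-sham3 and Ad-sham5, and at 556.2 to 4939 CPM in the 9. Whether blood left in the tissue played a part in any result was not tested. Over all genes tested the median log2 fold change was -0.04.

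**Figure D5:**
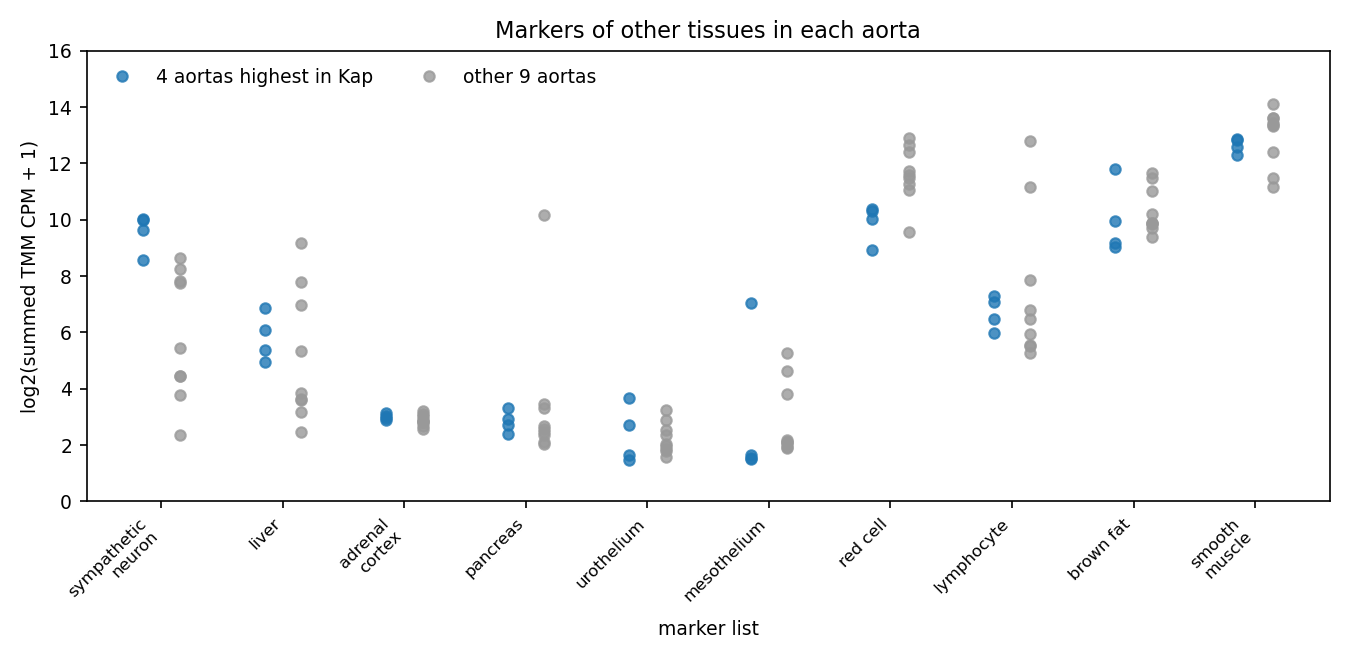
Summed level of 10 marker lists in each aorta, as log2(summed TMM CPM + 1), with the 4 aortas highest in Kap in blue and the other 9 in grey. Sympathetic sums are mostly higher and red cell sums mostly lower in the 4, and in all 10 lists the ranges of the 4 and the 9 overlap.

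Between the virus labels, which did not enter the choice, no nephron transcript passed a test. Kap had a low of 0, a median of 39.5 and a high of 489 CPM in the 6 Ad-sham aortas and a low of 0, a median of 0 and a high of 166 CPM in the 7 Ad-FAM3A aortas. The mean log2 CPM, with a prior count of 2, differed by -3.90, Ad-FAM3A minus Ad-sham (exact two-sided permutation test over 1716 splits, p = 0.154, and 0.488 after Benjamini-Hochberg adjustment over 6 genes, n = 6 and 7). The edgeR fit gave -2.08 (SE 1.84). Slc34a1, Lrp2, Umod, Cdh16 and Dbh were tested in the same way and gave exact permutation p of 0.293, 0.18, 0.384, 0.407 and 0.861 (n = 6 and 7). The groups overlapped in all 6 genes, and 0.00117 is the smallest p this exact permutation test can give. Across 15811 genes, edgeR called 0 genes between the labels, or 0%, with 934 genes at an unadjusted p below 0.05, and DESeq2 called 3. Of 71 nephron genes tested 0 were called and 5 had an unadjusted p below 0.05, namely Slc4a4, Slc27a2, Pck1, Acy3 and Ren1, with 0.81 as the smallest adjusted p over all genes. Ren1 had the largest of these differences, a log2 fold change of -1.62 (SE 0.49) with 0.727 to 2.20 CPM in Ad-sham and 0.0736 to 0.985 CPM in Ad-FAM3A. Without the 4 aortas highest in Kap, or with the Kap split as a covariate, edgeR again called 0 genes between the labels. As 3 of the 4 were Ad-sham, the virus label and the Kap split were partly confounded, and within Ad-FAM3A a single aorta carried the split.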

How the data were processed

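RNA of 13 mouse aortas was sequenced, 1 library each. The authors aligned reads to GRCm38 with Hisat2 and deposited raw counts per Ensembl gene from FeatureCounts; the annotation release, strand setting and treatment of multiply mapped reads are not given in the sources used here. Their FPKM means per group were not used. Here counts were scaled by TMM (edgeR 4.0.16, R 4.3.3), filtered by filterByExpr with the virus label, and tested with edgeR's quasi-likelihood test and Benjamini-Hochberg adjustment (adjusted p below 0.05, log2 fold change above 1). The script was tested on simulated data. Aortas were ranked by Kap, and virus label was the covariate. Named genes were Kap, the listed marker genes, the 20 genes most like Kap, the 5 largest fitted fold changes and Fam3a and Apoe. The members and lists were chosen with earlier results of these data known. The labels name separate aortas but not separate cages or runs, so p-values measure the spread between these libraries. No 2 libraries agreed within sampling noise (smallest chi-square per gene 41.7 over 78 pairs). Alternatives used DESeq2 1.42.0 and limma 3.58.1, other scalings and filters, and leaving out each aorta. RefSeq promoters are on GRCm38.p6 and were checked for exons of the GENCODE annotation; Cltrn was listed under its older symbol Tmem27. A count of 3 was taken as the limit that a count of 0 allows, and all intervals cover counting error only, since reads had no molecular identifiers. Some listed genes are counted in their lists and not reported here by name.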

Additional observations from a re-analysis of the deposited data

Results flagged for a closer look

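Dixon's test within each label was run on 68 combinations of label and marker list or depth, of which 4 passed its 95% critical value. Chance gives 1 in 20 when checks are independent. These checks share libraries, so their number does not tell whether a given gap arose by chance. Ad-FAM3A3 stood apart from the other 6 Ad-FAM3A aortas in the summed level of general tubule genes (gap over range 0.705), at 138.7 CPM against 2.87 to 10.1 CPM. Ad-FAM3A3 also stood apart in genes of the middle and late proximal tubule (0.637), at 274.9 CPM against 112.5 to 155.7 CPM. Kap chose this aorta, the only Ad-FAM3A aorta among the 4, so its gaps in tubule genes are a description and carry no test. Ad-FAM3A6 stood apart in pancreas genes (0.833), at 1141 CPM against 3.33 to 9.96 CPM. It also stood apart in cardiac muscle genes (0.57), at 160.9 CPM against 6.91 to 27.97 CPM.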

How the results depend on the processing

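The count of 109 genes called between the 4 aortas and the 9 moved widely. That of 19 nephron genes among them moved in some settings and less in others. Without a filter on low counts the 2 counts were 235 and 49, and with at least 10 counts in every aorta the nephron count was 4. DESeq2 gave 374 genes in all (360 higher and 14 lower in the 4) and 22 nephron genes. For limma-voom the numbers were 646 (643 and 3) and 26, and without a covariate 237 (233 and 4) and 24. The Ad-sham aortas alone (3 against 3) gave 0 and 0, and the replicate block, the titles' replicate number as a covariate, gave 0 and 0; deviations of same-numbered aortas correlated above 0.1 in 3 of 6 pairs (0.45, 0.30 and 0.28) and at -0.33 to 0.02 in the others, and 1 Ad-sham aorta was closest to its own number, so the numbers were not taken as pairs. For Kap between the labels the replicate block gave a log2 fold change of -4.34, and for all genes between the labels 0 calls. Log2 CPM of Kap as a continuous covariate gave 26 calls, of which 17 were nephron genes. Of alternatives added after seeing the data, Dbh as covariate gave 2 calls and 1 nephron gene, and a split into 5 and 8 gave 14 and 10. Leaving out the 2 aortas of intermediate Kap gave 52 calls in all and 16 nephron genes. The cause was not tested. Leaving out 1 aorta gave 0 to 554 calls and 0 to 31 nephron genes: 0 without Ad-FAM3A3, 12 without Ad-sham5, 41 without Ad-sham2, 46 without Ad-FAM3A7, 55 without Ad-FAM3A4, 56 without Ad-sham3, 64 without Ad-FAM3A1, 66 without Ad-FAM3A5 and 554 without Ad-sham1, so the count of calls is no stable quantity. Between the labels, DESeq2 called 3 genes on all 13 aortas, edgeR called 0 with each aorta left out, and with each left out its log2 fold change of Kap ran from -4.63 to -0.62. The log2 fold changes of Kap and the 19 called nephron genes were recomputed only with DESeq2 size factors and with each aorta left out, where the gene passed the filter, and kept their sign in 265 of 265 such values, of which 68 lost the call and 1, Kap without Ad-FAM3A2, gained it. Scaling moved the median of all genes from -0.038 to -0.054 and 0.015.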
